A study of Drosophila melanogaster with 3 samples.

Results

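Exonic regions away from promoters are the places in annotated exons, more than 500 bp from any transcription start site (TSS), that were listed as candidate binding regions of Plzf in Drosophila melanogaster prepupae. A region was taken from the pooled list of 30000 on the dm6 assembly when its summit, the base of highest signal, lay in a coding, untranslated (UTR) or noncoding exon of the Ensembl annotation at that distance. This gave 1460 exonic regions of 30000, and 178 of them were in the authors' list of peaks that passed the irreproducible discovery rate (IDR), a procedure that keeps regions ranked alike between replicates. Another 70 overlapped an IDR peak without being one and were set aside, which left 1212 exonic regions as the rest. The data are chromatin immunoprecipitation with sequencing (ChIP-seq) of 1 group with 3 biological replicates. Each replicate was whole prepupae, male and female pooled and of unknown age, from a transgenic line stably expressing Plzf with GFP at its C terminus. Per the labels the description names an antibody to GFP while the antibody field names CG6792, the gene of Plzf, and chromatin was sonicated. The line still had the tissues of the whole animal, no second genotype or condition was analysed here, and nothing in the labels ties the replicates to separate crosses, so p-values measure only the spread between these samples.

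Plzf is a zinc finger protein, a class of proteins that often bind DNA. Exons are the parts of a gene kept in the mature RNA: coding exons carry the protein sequence under strong constraint, 5′ and 3′ UTRs flank it, and long noncoding RNA (lncRNA) genes have exons with no reading frame. ChIP-seq signal of transcription factors is best known from promoters and from enhancers in introns and between genes, while coding sequence is known for few such sites. Whole-animal chromatin mixes many tissues, so fewer cells holding a site and weaker binding per cell cannot be told apart.

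The 29 bases centred on the summit are shown for 3 strong IDR peaks of each exon class, because the classes differed in base composition. The single strongest 5′ UTR and coding-exon peaks, at Fbl6 and otp, are not among them; both summits were richer in GC than their flanks. They are the plus strand of the RefSeq Release 6 genome (dm6), read from lower to higher coordinate, and capitals mark the longest unbroken run of A and T.
Raf, 5′ UTR, X:2296286-2296314: tatccaacgtcTTAAAgtcaaaatcttac
eas, 5′ UTR, X:16279551-16279579: gatcAAATTAAAAActtagccaccctctc
firl, 5′ UTR, 2L:12065869-12065897: TTTATATAgaatctcaaaattgcttagaa
klar, coding exon, 3L:506261-506289: acccAAggtggcgctgctgtgcagactgg
CG5895, coding exon, 3L:16037142-16037170: gAAATATTTAATTTgtactgaattgtata
CG10357, coding exon, 3L:3616518-3616546: cctacggccagggcaggaactcacATTTc
Ance-3, 3′ UTR, 2L:13955913-13955941: gaagtagATTcagacacctactcgaaaca
CG7872, 3′ UTR, X:15579777-15579805: tcacAAAAAAAgcacgccacattcgcgtg
Cals, 3′ UTR, 4:1113309-1113337: taccctttcAAAAActgctgcaatatgct
lncRNA:CR46035, noncoding exon, 3R:17704402-17704430: tctgatcaagtcactcatcAAAAgactga
lncRNA:Vinr, noncoding exon, X:12751309-12751337: tgAAATATAAATTTTgatatatgccaatc
lncRNA:CR44619, noncoding exon, X:12754518-12754546: ataccataaaacAAATTAAgaaaagcgaa
The stretches ranged from 5 G or C bases of 29 at CG5895 to 19 of 29 at klar, both of them in coding exons. The longest run of A and T was 13 bases at lncRNA:Vinr and at CG5895, and 2 bases at klar.

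Peak signal is the authors' value for the height of a region, and it was used here only to rank and describe regions of the same list. The IDR list was tested on the pooled list and held the 7096 pooled regions of highest signal, with a lowest signal of 79.6, so to be an IDR peak here is to be among the strongest pooled regions. Each replicate had its own list of 30000 regions. Sequencing depth in reads is unknown from these lists, and the 95% Wilson intervals below cover the counting of regions only. Regions are not replicates, so no p-value was computed across them.

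A smaller share of exonic regions than of regions elsewhere was in the IDR list. Of the 1390 exonic regions that were IDR peaks or overlapped none, 178 were IDR peaks, or 12.8% (95% interval 11.2 to 14.7), against a background of 25.1% over all 28243 pooled regions counted the same way. The shares were 33.9% for promoters, 23.6% for introns and 20.04% for intergenic sequence, with intervals that do not overlap that of exons. Exons made up 2.51% of the IDR peaks and 5.73% of the rest of the pooled regions.

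The exon classes differed among themselves. Coding exons had 13 IDR peaks of 376 regions, or 3.46% (2.03 to 5.82). The 5′ UTRs had 31 of 271, or 11.4% (8.18 to 15.8), and the 3′ UTRs had 55 of 418, or 13.2% (10.3 to 16.7). The intervals of these 3 messenger RNA (mRNA) classes lie below the background, and that of coding exons lies below those of both UTRs. Exons of noncoding RNA genes had 79 of 325, or 24.3% (19.96 to 29.3), an interval that holds both the background and the intron share. All 325 of these regions lay in exons of genes annotated as noncoding RNA, so the 79 IDR peaks did as well.

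**Figure D1:**
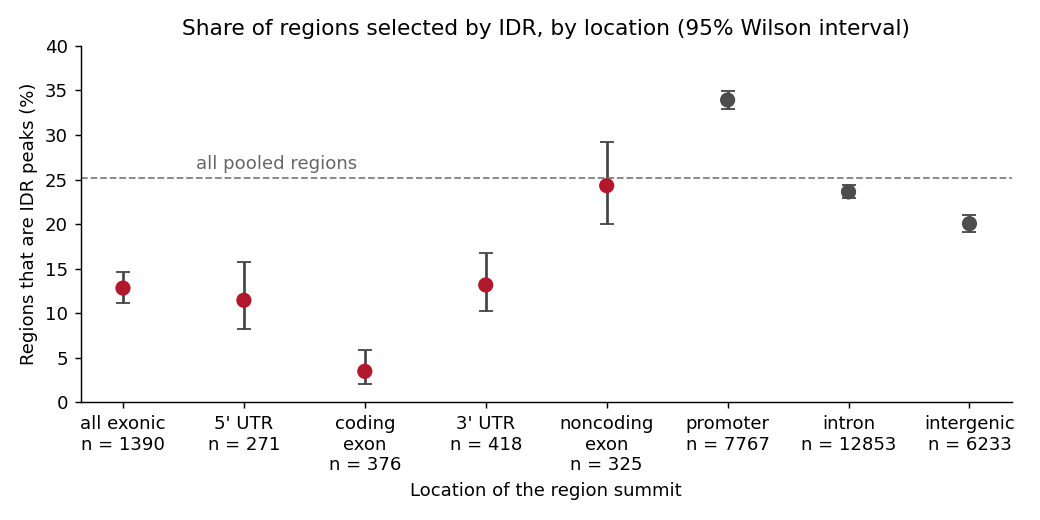
Percentage of pooled regions that were IDR peaks (vertical axis) by location of the summit (horizontal axis), with points for the share, bars for the 95% Wilson interval, exon classes in red and other locations in grey. Coding exons sit lowest at 3.46%, and noncoding exons at 24.3% lie beside the dashed line, the 25.1% of all pooled regions.

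Set against the amount of sequence, the gap between classes was wider. Coding exons beyond 500 bp of a TSS cover 18408 kb, or 13.7% of the chromosome arms, and held 0.706 IDR peaks per Mb. The 3′ UTRs held 9.28, the 5′ UTRs 29.7 and the noncoding exons 74.1 IDR peaks per Mb, against 53.0 over all arms, sequence near a TSS included. Coding exons thus had the lowest density of IDR peaks and noncoding exons the highest of the 4 classes. The rest of the regions held 19.7 per Mb in coding exons, 61.3 in 3′ UTRs, 230.1 in 5′ UTRs and 230.6 in noncoding exons. Over all arms the rest held 158.0 per Mb, so the densities also follow where pooled regions lie. The bases of the 4 classes differ in composition, with a GC content of 53.4% in coding exons, 35.2% in 3′ UTRs, 45.7% in 5′ UTRs and 42.0% in noncoding exons.

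Along the ranked pooled list the classes followed different courses. In bins of 3000 regions, mRNA exons made up 0.767% of the strongest bin and 6.83% of the weakest. Coding exons made up 0.0667% of the strongest bin, which is 2 regions, and 3.63% of the weakest, which is 109 regions. Noncoding exons stayed between 0.967% and 1.43% in all 10 bins. The 5′ UTRs were at 11 and 15 regions of 3000 in bins 1 and 2 and between 28 and 37 in the other 8.

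**Figure D2:**
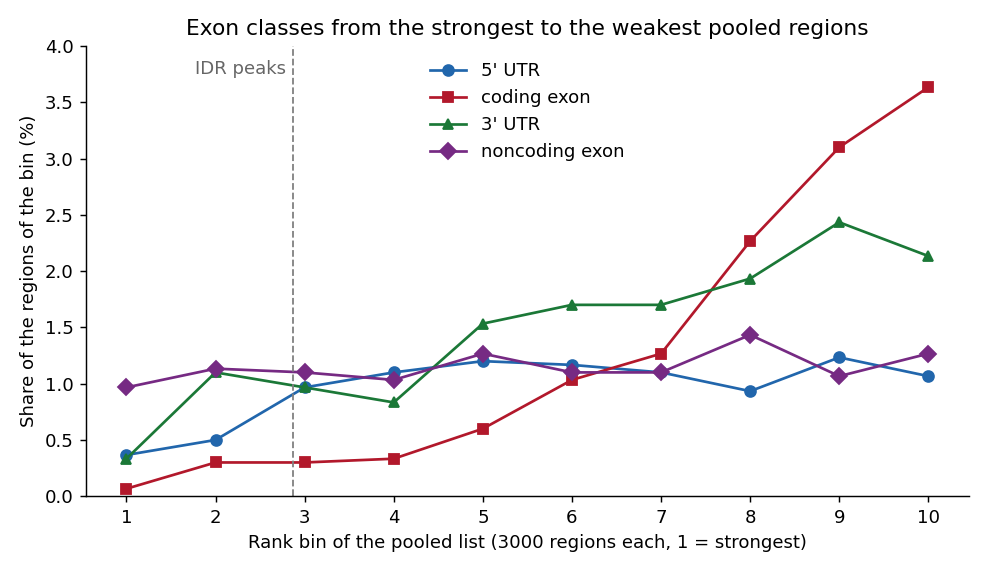
Share of the regions of each bin that lie in each exon class (vertical axis, percent) over 10 bins of 3000 pooled regions ordered by signal (horizontal axis, 1 = strongest), with 1 line per class and a dashed line at the end of the IDR peaks. The coding-exon line climbs to 3.63% in the weakest bin, while the noncoding-exon line stays between 0.967% and 1.43%.

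The replicates' own lists were split in the same way, into the 7096 strongest regions and the remaining 22904. Exons made up 2.37%, 2.64% and 2.52% of the strongest regions in replicates 1, 2 and 3, against 8.26%, 5.80% and 9.96% of the remaining regions. The strongest regions held fewer exonic summits in each of the 3 replicates, and the values of the 2 sets did not overlap. The means were 2.51% ± 0.135 and 8.01% ± 2.09 (SD, n = 3 each), a difference of -5.50 ± 2.17 percentage points (exact sign-flip permutation test over the replicates, two-sided, p = 0.25, the smallest value 3 replicates can give; adjusted p = 0.281 over 18 tests). The same libraries made the pooled list, so this is a second view of them and not separate evidence.

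Among the strongest regions the coding share varied little, at 0.183%, 0.212% and 0.155% in replicates 1, 2 and 3, while among the remaining regions it was 3.76%, 1.58% and 5.13%. Replicate 2 had the smallest coding share among its weak regions and replicate 3 the largest. The 3′ UTR share was 0.747% ± 0.0377 of the strongest and 2.33% ± 0.344 of the remaining regions, and the 5′ UTR share 0.5498% ± 0.0881 and 1.08% ± 0.0176 (SD, n = 3 each). Both UTR shares were lower among the strongest regions in 3 of 3 replicates (exact sign-flip p = 0.25 for each). Noncoding exons differed little, at 1.03% ± 0.0286 of the strongest and 1.11% ± 0.0627 of the remaining regions, a difference of -0.0814 ± 0.0731 percentage points in the same direction in 3 of 3 replicates (exact sign-flip p = 0.25).

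Noncoding exons held the strongest exonic peaks. The highest lay in an exon of lncRNA:CR46035 (3R:17704186-17704664), within an intron of osa, which encodes a subunit of the Brahma chromatin remodelling complex. Its pooled signal of 2087 was rank 9 of 30000, and it had signals of 568, 888 and 650 in replicates 1, 2 and 3, at ranks 16, 8 and 7 of their lists. It was thus among the 16 strongest regions of every replicate. GC content within 50 bp of its summit was 34.7%, against 54.0% in the flanks, equally wide windows whose centres lie 300 bp to either side.

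The next exonic peak lay in lncRNA:Vinr (X:12750821-12751657), a noncoding RNA named for its induction by virus. Its pooled signal was 1586, with 467, 622 and 380 in replicates 1, 2 and 3. Further along the X chromosome, lncRNA:CR44619 held a peak of 874, with 284, 351 and 251 in the 3 replicates, and a weaker one of 97.7. Both strong peaks ranked at 167 or better in each replicate, and GC content was 26.7% at the Vinr summit and 22.8% at that of lncRNA:CR44619. Another 2 noncoding-exon peaks among the 8 strongest lay inside the introns of named genes: lncRNA:CR45226 in plum, which encodes an immunoglobulin superfamily protein of axon pruning, and lncRNA:CR44331 in puc, which encodes a phosphatase of Jun kinase. Their pooled signals were 540.5 and 438.

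Some noncoding genes held several peaks. The gene lncRNA:CR43334 on 3L held 4, with signals of 157, 234, 270 and 544, all 4 in the strongest regions of every replicate. lncRNA:CR46004 and lncRNA:CR43650 held 3 each, with pooled signals between 104 and 232. The strongest and weakest of those in lncRNA:CR46004 overlap, with summits 200 bp apart. Of the noncoding-exon regions inside a protein-coding gene, 28 of 87 were IDR peaks, or 32.2% (23.3 to 42.6), and of those outside such genes 51 of 238, or 21.4% (16.7 to 27.1), with intervals that overlap. Many summits lay near an exon edge: 22 of 79 noncoding-exon IDR peaks (27.8%) were within 50 bp of one, against 31 of 246 (12.6%) of the rest. At lncRNA:CR45226 the edge was 2 bp away, and at the stronger peak of lncRNA:CR44619 39 bp.

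In 5′ UTRs the strongest peak was at Fbl6 (an F-box protein gene) with a pooled signal of 748 and with 237, 302 and 207 in replicates 1, 2 and 3. Raf, the kinase between Ras and MEK, followed with 635 and with 188, 296 and 150 in the replicates. The third was eas, which encodes ethanolamine kinase, at 545, and firl was at 379. These 4 were in the strongest regions of all 3 replicates. Further peaks of the 8 strongest lay in cic, a repressor downstream of receptor tyrosine kinases (356), Mef2, the muscle differentiation factor (283), Pi3K92E, a catalytic subunit of phosphoinositide 3-kinase (255), and Nup153, a nuclear pore protein (246). In replicate 2 Mef2 had its lowest rank, 3021, against 1087 and 859 in replicates 1 and 3.

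Many 5′ UTR summits were exonic in some transcripts and not in others. At Fbl6 the summit was exonic in 1 of 3 transcripts over it, at eas in 2 of 8 and at firl in 1 of 3. Over all 5′ UTR IDR peaks 12 of 31 (38.7%) were exonic in every transcript over the summit, against 131 of 240 (54.6%) of the rest. Regions exonic in every transcript were IDR peaks in 12 of 143 cases, or 8.39% (4.87 to 14.1), and the others in 19 of 128, or 14.8% (9.71 to 22.0). These intervals overlap. Across all exonic IDR peaks 115 of 178 (64.6%) were exonic in every transcript, against 909 of 1212 of the rest.

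The 3′ UTR peaks were led by Ance-3, a member of the angiotensin-converting enzyme family, at 2L:13955753-13956104 with a pooled signal of 630 and with 160.5, 294 and 168 in replicates 1, 2 and 3. CG7872 had 549, and Cals, which encodes the synaptic cadherin calsyntenin on chromosome 4, had 495. These 3 were in the strongest regions of all 3 replicates. The others of the 8 strongest were stas (408), CG33307 (400.5), NetB (384), by (329) and CG14440 (323). NetB encodes a netrin, a guidance cue for axons, and by encodes tensin, a protein of integrin adhesions. Of the 55 peaks, 39 (70.9%) lay within 500 bp of an annotated transcript end, against 68.0% of the other 3′ UTR regions. Median distances to the nearest transcript end were 225 bp and 296 bp. Summits within 50 bp of an exon edge were 7 of 55 (12.7%) and 25 of 363 (6.89%).

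Lsd-2, which encodes a perilipin of lipid droplets, held 3 peaks in its 3′ UTR, at 238, 122 and 94.2. The strongest had 66.5, 117 and 47.6 in replicates 1, 2 and 3 and a GC content of 62.4% at the summit, against 49.0% in its flanks. The second had 10.8, 73.3 and 30.9, and replicate 1 did not hold it among its strongest regions. Inx2, a gap junction subunit, held 2 weak, overlapping 3′ UTR peaks at 108 and 94.4, each among the strongest regions of 1 replicate. Mef2 and eas each held a 3′ UTR peak besides the one in the 5′ UTR, at 129 for Mef2 and 97.2 for eas. The 3 peaks given to CG12535 had 98.4, 86.9 and 83.4, and 1 of them is also in an exon of Myc.

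All 13 coding-exon peaks can be named. The strongest, in otp, which encodes a homeodomain factor, had a pooled signal of 366, rank 938, with 110, 134 and 124 in replicates 1, 2 and 3. All bases within 50 bp of its summit were coding, with a GC content of 61.4% against 32.7% in the flanks. klar, whose product acts in nuclear migration and organelle transport, had 179, CG5895 had 151 and CG10357 had 147. The other 9 were weaker: bif, a cytoskeletal regulator (133), Ubr1, an N-end rule ubiquitin ligase (125), Snx27, a sorting nexin (114), su(w[a]), a splicing regulator (106), HisRS, the histidyl-tRNA synthetase (94.8), CG10962, whose exon here overlaps lncRNA:CR43836 (94.3), sgg, the kinase GSK3 (94.1), Socs36E, a JAK/STAT inhibitor (88.0), and CG32428 (87.1). The 2 coding-exon peaks among the 3000 strongest pooled regions were therefore otp and klar.

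Coding summits fell at both ends of the GC scale. GC content was 60.4% to 67.3% at otp, klar, Ubr1, Snx27 and HisRS, and 29.7% to 36.6% at CG5895, bif, su(w[a]), sgg and CG32428. CG10357, CG10962 and Socs36E lay between, at 45.5%, 48.5% and 58.4%. In 5 of the 13 all bases within 50 bp of the summit were coding, against 245 of 363 other coding regions, and 4 of 13 summits were within 50 bp of an exon edge, against 92 of 363. At CG32428, CG10962 and bif the summit was 3, 7 and 9 bp from the edge. The 3 strongest coding regions that were not IDR peaks lay in GC1, a mitochondrial glutamate carrier gene (76.1), Dlic, a dynein subunit gene (74.4), and PNUTS, which encodes a nuclear subunit of protein phosphatase 1 (71.6).

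At the limits of the selection, the weakest exonic IDR peak had a signal of 80.6, and the strongest exonic region outside the list, in the 3′ UTR of dsx, had 78.4. Nearest above the limit of 500 bp from a TSS were lncRNA:CR44868 at 505 bp and lncRNA:CR44797 at 511 bp, with signals of 84.7 and 86.6. Just within it were peaks in the 5′ UTR of Syp at 499 bp and in lncRNA:CR46490 at 496 bp, with signals of 104.5 and 103.5. The exonic IDR peaks had a median distance of 1222 bp to the nearest TSS and a median width of 440 bp. They formed 173 separate intervals in 161 host genes, and 20 overlapped another IDR peak, in 1 case one at a promoter.

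The low GC content at the summit that marked intronic IDR peaks was present in noncoding exons and small or absent in mRNA exons. At noncoding-exon IDR peaks GC content averaged 33.1% ± 1.07 at the summit and 45.9% ± 0.718 in the flanks (SE over 79 regions), and the summit was lower in 71 of 79. Intronic IDR peaks averaged 32.6% at the summit and 45.2% in the flanks. At mRNA-exon IDR peaks the averages were 39.9% ± 1.17 and 41.6% ± 0.816 (SE over 99 regions), and the summit was lower in 52 of 99. The summit was lower than the flanks in 31 of 55 peaks in 3′ UTRs, 15 of 31 in 5′ UTRs and 6 of 13 in coding exons. The rest of the mRNA-exon regions averaged 44.9% at the summit and 42.7% in the flanks, with the summit lower in 391 of 966. Against their own rest, mRNA-exon IDR peaks thus had lower summit GC, but the 2 sets differ in their mix of classes. Coding exons were 13 of the 99 IDR peaks and 363 of the 966 others. Within each class the gap was smaller. IDR peaks and the rest averaged 36.4% ± 1.46 and 37.4% ± 0.492 in 3′ UTRs, and 42.0% ± 1.61 and 43.2% ± 0.640 in 5′ UTRs. In coding exons they averaged 49.3% ± 3.98 and 53.6% ± 0.392 (SE over regions). The rest of the noncoding-exon regions averaged 39.6% and 43.8%. In coding exons flank minus summit GC averaged -7.62 ± 4.51 points for the 13 IDR peaks and -7.63 ± 0.531 for the rest (SE over regions). The summit was lower than the flanks in 6 of 13 and in 87 of 363 (24.0%), so near-equal means do not make the 2 sets alike.

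**Figure D3:**
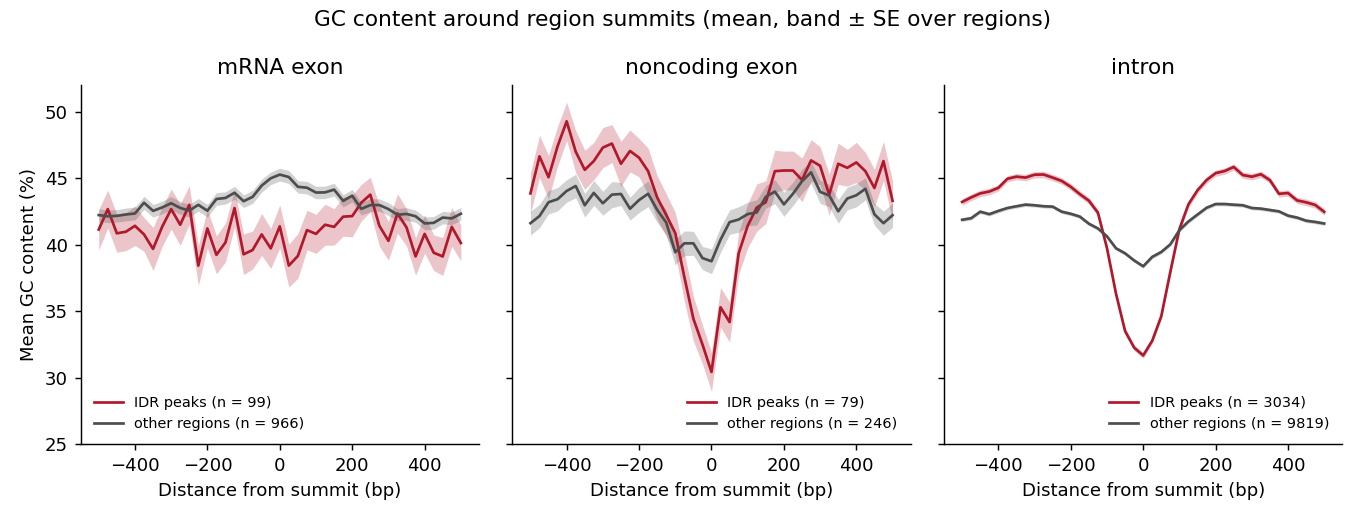
Mean GC content in windows of 25 bp (vertical axis, percent) by distance from the region summit (horizontal axis, bp) for IDR peaks in red and other regions in grey, with bands of ± 1 SE over regions. IDR peaks in noncoding exons and introns reach 30.4% and 31.7% at the summit, while those in mRNA exons are at 41.4% with no trough.

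The replicates' own strongest regions gave the same picture. In noncoding exons the flanks exceeded the summit by 13.1 ± 0.497 percentage points of GC (SD, n = 3), with 33.1%, 33.2% and 32.8% at the summit and 46.2%, 46.8% and 45.4% in the flanks of replicates 1, 2 and 3. In mRNA exons the difference was 1.09 ± 1.03 points and positive in 2 of 3 replicates (exact sign-flip p = 0.50). In coding exons it was -10.6 ± 2.52 points, since the summits were richer in GC than the flanks in 3 of 3 replicates, and in 3′ UTRs 3.85 ± 1.73 points, positive in 3 of 3 (exact sign-flip p = 0.25 for each). The difference in noncoding exons was far larger than its SD, and that in mRNA exons was about as large as its SD.

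Within exons as a whole, the strongest regions of the replicates had a mean summit GC of 37.4% ± 0.553 and the remaining exonic regions 45.4% ± 1.46 (SD, n = 3 each), lower in 3 of 3 replicates (exact sign-flip p = 0.25). By class the strongest and remaining regions averaged 33.0% and 40.2% in noncoding exons, 36.8% and 37.7% in 3′ UTRs, 41.6% and 44.3% in 5′ UTRs, and 51.98% and 53.3% in coding exons. The difference of noncoding exons, -7.20 ± 0.382 points, was thus larger than that of each mRNA class.

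Because coding exons are rich in GC, the selected shares were also compared at equal summit GC. Introns given the GC distribution of mRNA exons, in bins of 5 percentage points, would have a selected share of 16.7%, while mRNA exons had 9.30% (7.70 to 11.2). The same comparison gave 3.46% in coding exons and 8.79% for introns at their GC, 13.2% in 3′ UTRs and 23.7% for introns, and 11.4% in 5′ UTRs and 16.9% for introns. For coding exons and both UTRs the intron value lies above the 95% interval of the class. Noncoding exons had 24.3% and introns at the same GC 23.3%, inside the interval. Set against intergenic regions at the same GC, the values were 3.46% in coding exons and 7.64% between genes, 13.2% in 3′ UTRs and 19.7%, 11.4% in 5′ UTRs and 13.9%, and 24.3% in noncoding exons and 19.1%. The intergenic value thus lies inside the interval of 5′ UTRs and below that of noncoding exons (19.96 to 29.3), so these comparisons depend on which regions they are set against.

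By bins of GC content, the gap of mRNA exons to introns was widest in points at low GC. For summits of 25% to 30% GC, 14 of 91 mRNA-exon regions were IDR peaks, or 15.4% (9.39 to 24.2), against 20 of 50 noncoding-exon regions (27.6% to 53.8%), and 812 of 2023 introns, or 40.1% (38.0 to 42.3). At 30% to 35% GC the shares were 10.1% in mRNA exons, 33.3% in noncoding exons and 30.05% in introns. At 40% to 45% GC they were 10.8%, 14.3% and 12.6%, with intervals that overlap. In 3′ UTRs, the class of lowest GC, 11 of 69 regions at 25% to 30% GC were IDR peaks, or 15.9% (9.14 to 26.3). Coding exons, most of which are richer in GC, also lay below introns between 50% and 60% GC. At 50% to 55% GC none of 92 coding-exon regions was an IDR peak (up to 4.01%), against 8.23% (6.62 to 10.2) of introns. At 55% to 60% GC 1 of 107 was, or 0.935% (0.165 to 5.10), against 6.02% (4.08 to 8.79) of introns, with intervals that overlap. At 60% GC and over coding exons were not lower, with 5 of 66, or 7.58% (3.28 to 16.5), against 7.14% (3.66 to 13.5) of introns.

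**Figure D4:**
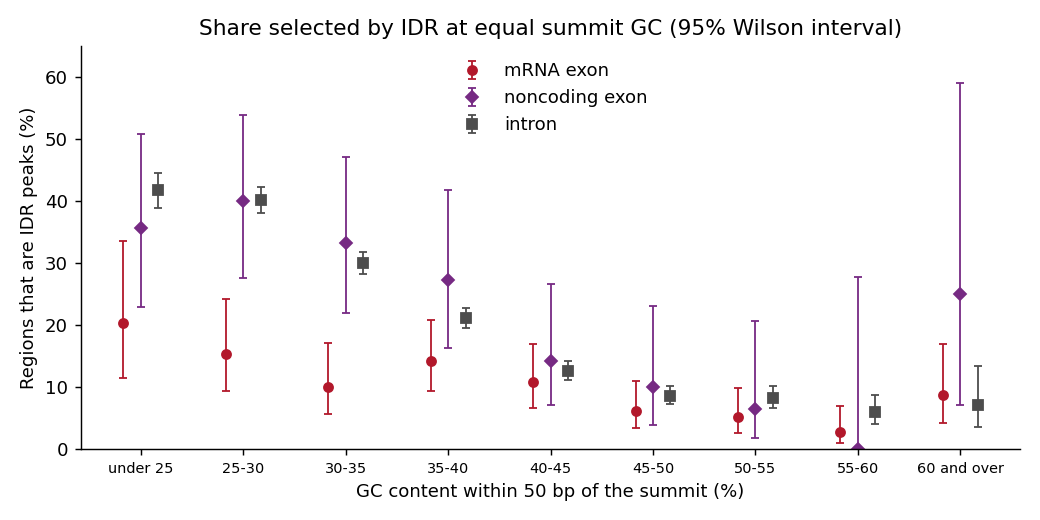
Percentage of regions that were IDR peaks (vertical axis) by GC content within 50 bp of the summit (horizontal axis, percent), for mRNA exons, noncoding exons and introns, with 95% Wilson intervals. Below 35% GC the mRNA-exon points lie at 10.1% to 20.4%, and those of noncoding exons and introns at 30.05% to 41.7%.

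Short sequence motifs were counted within 50 bp of the summit on both strands. Runs of 7 A or T bases of one kind (AAAAAAA) were present in 34 of 178 exonic IDR peaks, or 19.1% (14.003 to 25.5), against 9.24% (7.74 to 11.003) of the rest, 10.4% of the IDR peaks' own flanks and 13.5% of all pooled summits. The share was 18.2% (11.8 to 26.9) in mRNA-exon IDR peaks, against 8.90% (7.27 to 10.9) of their rest. In noncoding exons it was 20.3% (12.9 to 30.4) against 10.6% (7.32 to 15.04), with intervals that overlap. On the autosomes 9 of 65 noncoding-exon IDR peaks had such a run, or 13.8%, against 10.6% of the rest there. On X 7 of 14 had one, or 50%, against 10.7% of the rest there. A TATA box (TATA, then A or T, then A, then A or T) was in 20.2% (14.98 to 26.7) of exonic IDR peaks, against 11.8% (10.1 to 13.7) of the rest and 17.6% of all pooled summits. These motifs are themselves made of A and T, and the IDR peaks had lower summit GC than the rest. Whether the motif shares differ at equal GC was not tested.

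Other motifs were less frequent or differed less. TAATATA was in 6.74% (3.898 to 11.4) of exonic IDR peaks and 3.05% (2.22 to 4.18) of the rest, and TCTTAAA in 4.49% and 1.98%, against 5.15% and 3.38% of all pooled summits. Both sequences were picked from earlier results of these data, so their shares here are not separate evidence. The GATA motif (A or T, then GATA, then A or G) was in 18.5% and 16.8%, against 19.4% of all pooled summits, and in introns in 24.5% of IDR peaks. The GAGA motif (GAGAG) was in 18.2% (11.8 to 26.9) of mRNA-exon and 8.86% (4.36 to 17.2) of noncoding-exon IDR peaks, against 15.3% and 15.9% of the rest of each and 13.3% of all pooled summits. The CA repeat (CACACA) was in 6.18% of exonic IDR peaks and 10.97% of the rest, and CGATA in 14.6% and 9.98%, against 9.25% and 11.997% of all pooled summits. TAATTA was in 6.18% and 5.45%, against 7.45% of all pooled summits, and CANNTG in 36.0% and 41.8%, against 37.7%. TATCGATA, which contains CGATA, was found in 0 of 178 (up to 2.11%), in 1 of 1212 of the rest and in 0.700% of all pooled summits. The intervals of exonic IDR peaks and of the rest overlap for all of these motifs.

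The replicates held most exonic IDR peaks. Since the same libraries made the pooled list, these shares are no measure of agreement between replicates. A region with its summit within 100 bp was among the strongest 7096 of replicates 1, 2 and 3 for 75.3%, 82.6% and 78.7% of the 178, a mean of 78.8% ± 3.66 (SD, n = 3), against 82.3% ± 1.22 for all IDR peaks. All 3 replicates held 102 of 178, or 57.3% (49.96 to 64.3), against 62.4% (61.2 to 63.5) of all IDR peaks, and 3 were held by none. The share in all 3 was 63.3% in noncoding exons and 52.5% (42.8 to 62.1) in mRNA exons, and 49.1% (36.4 to 61.9) in 3′ UTRs. The 3′ UTR interval lies partly below that of all IDR peaks and overlaps it.

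Support followed signal. The quartiles of all IDR peaks, from strongest to weakest, held 32, 36, 54 and 56 exonic peaks. All 3 replicates held 31 of 32, 32 of 36, 31 of 54 and 8 of 56 of them. In the weakest quartile the 14.3% of exonic peaks held by all 3 compares with 8.37% of intronic and 7.23% of promoter peaks. Exonic peaks thus made up 1.80% of the strongest quartile, against 3.16% of the weakest.

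A larger share of mRNA-exon regions on X than on the autosomes were IDR peaks, a comparison made after the arms had been seen. Of mRNA-exon regions on X, 41 of 248 were IDR peaks, or 16.5% (12.4 to 21.7), against 58 of 817 on the autosomes, or 7.10% (5.53 to 9.07). The other 4 large arms ranged from 5.64% to 9.20%. X thus carried 41.4% of the mRNA-exon IDR peaks (32.2 to 51.3), 21.4% of the other mRNA-exon regions, and 19.3% of the eligible mRNA-exon bases. Over all pooled regions X had no such excess, with 24.6% selected, against 25.3% on the autosomes.

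In the pooled list the intervals of X and the autosomes were apart in 3′ UTRs and coding exons. In 3′ UTRs 26 of 122 regions on X were IDR peaks, or 21.3% (14.98 to 29.4), against 29 of 296 on the autosomes, or 9.80% (6.91 to 13.7). In coding exons there were 7 of 59 on X, or 11.9% (5.87 to 22.5), among them bif, Ubr1, Snx27 and sgg, against 6 of 317, or 1.89% (0.870 to 4.07). The 5′ UTRs had 11.9% on X and 11.3% on the autosomes, and noncoding exons 33.3% (21.0 to 48.5) and 23.0% (18.5 to 28.2), with intervals that overlap. Introns had 24.97% and 23.2%, and promoters went the other way, with 30.4% on X and 34.7% on the autosomes.

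**Figure D5:**
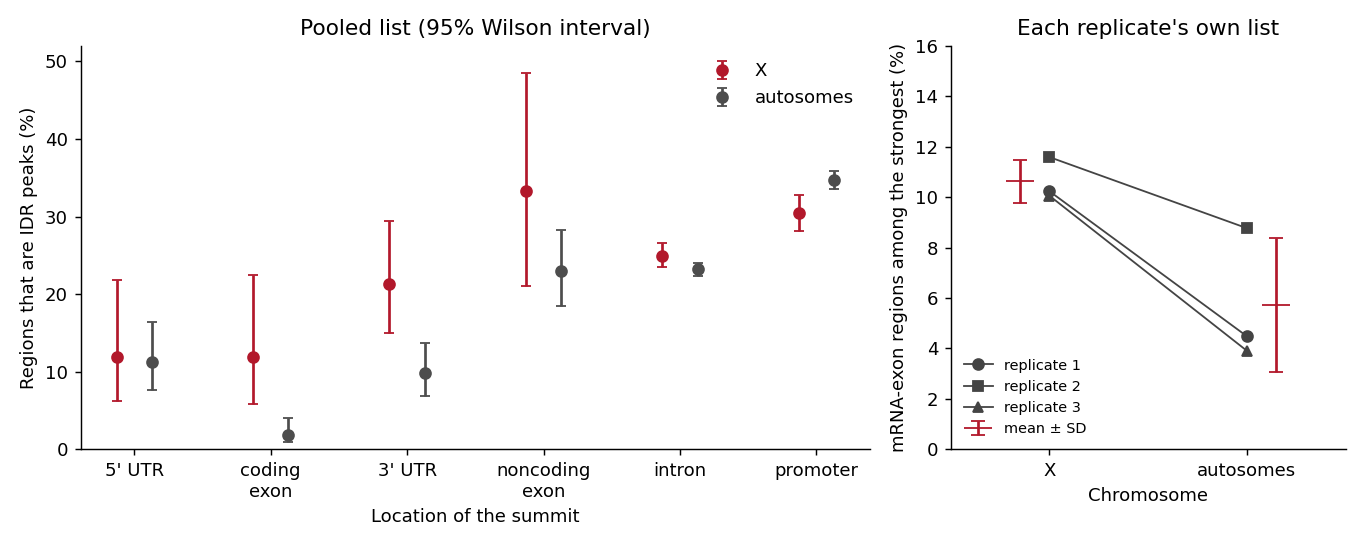
Left, percentage of pooled regions that were IDR peaks (vertical axis) by location (horizontal axis) on X in red and on the autosomes in grey, with 95% Wilson intervals. Right, percentage of each replicate's mRNA-exon regions that were among its strongest 7096, on X and on the autosomes, with lines joining a replicate and red bars for the mean ± SD; X is higher in all 3, at 10.6% against 5.72% on average.

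In the replicates' own lists 10.2%, 11.6% and 10.1% of the mRNA-exon regions on X were among the strongest in replicates 1, 2 and 3, against 4.48%, 8.77% and 3.91% on the autosomes. X was higher in 3 of 3 replicates, and the values did not overlap. The means were 10.6% ± 0.839 and 5.72% ± 2.66 (SD, n = 3 each), a difference of 4.91 ± 1.82 points (exact sign-flip p = 0.25, the smallest possible; adjusted p = 0.30 over 6 tests). For noncoding exons the difference was 14.3 ± 5.88 points, with 27.9%, 36.4% and 40.6% on X and 20.1%, 20.3% and 21.5% on the autosomes, and for introns 2.43 ± 1.04 points, both in 3 of 3 replicates (exact sign-flip p = 0.25 for each). For 5′ UTRs it was 2.52 ± 4.15 points and positive in 2 of 3 (exact sign-flip p = 0.50). For 3′ UTRs it was 5.07 ± 3.002 points and for coding exons 3.54 ± 2.77 points, both in 3 of 3 (exact sign-flip p = 0.25 for each). These 2 differences varied between replicates. In 3′ UTRs replicate 2 had 12.05% on X and 10.2% on the autosomes. In coding exons replicate 3 had 1.53% and 0.852%, with 2 regions on X among its strongest. The excess was therefore not particular to mRNA exons in these lists. X made up 36.1%, 31.25% and 34.0% of the strongest mRNA-exon regions, against 18.9%, 25% and 15.8% of the remaining ones.

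Summit GC moved with this difference to a small extent. The rest of the mRNA-exon regions averaged 42.8% GC on X and 45.5% on the autosomes. Autosomal regions given the GC distribution of X would have a selected share of 7.78%, and given its mix of exon classes 8.32%, both below the 16.5% measured on X. Most of the excess lay among the weaker peaks. The median pooled signal of mRNA-exon IDR peaks was 109 on X and 125 on the autosomes, and all 3 replicates held 46.3% and 56.9% of them. Counting only IDR peaks above the median signal of 145.0, 10 of 217 regions on X and 23 of 782 on the autosomes were selected, a difference of 1.67 percentage points in place of 9.43. With only peaks held by both other replicates counted as selected, the difference was 6.25, 5.98 and 4.60 points without replicates 1, 2 and 3.

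The host genes of exonic peaks held few members of the gene lists drawn up for prepupae. Of 1101 genes with an exonic region, 161 (14.6%) had an exonic IDR peak. In the list of the ecdysone cascade, the steroid pathway that drives metamorphosis, 11 genes had an exonic region and 1 had an IDR peak, Hr4, a nuclear receptor gene, with 119 in its 3′ UTR and 41.6, 50.1 and 30.6 in replicates 1, 2 and 3. Listed signalling genes had 2 of 15, Socs36E and wts, the kinase of the Hippo pathway, with 169 in a 5′ UTR. Genes of neuronal wiring had 1 of 9, NetB. None was found among listed disc and segment patterning factors (12 with an exonic region), chromatin genes (7), RNA-binding genes (7), muscle genes (3) and homeotic genes (1). The lists do not cover all such genes: Mef2, su(w[a]), Raf and sgg host exonic IDR peaks and were counted in none of them. At these sizes no list can be set apart from the 14.6% of all host genes.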

How the data were processed

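Per the file headers in the notes that came with them, the authors deposited narrowPeak lists on dm6 for each of the 3 replicates, for their pool and for the peaks that passed IDR. A control library entered the calling. Not given in the sources used here: aligner, peak caller and versions. The deposited signal is the caller's peak height and ranked the regions within each list. The deposited −log10 q-value was not used for ranking because many regions share its ceiling. All columns used were mapped to a sample or to the pool (0 left over), and the dm3 lists were not used here. Summits were placed on Ensembl release 115 without transposable elements, in the order 5′ UTR, coding exon, 3′ UTR, noncoding exon. Sequence was read from RefSeq's Release 6 genome. In replicate 2, 6 regions off the chromosome arms were left out. Shares carry 95% Wilson intervals, and replicate differences were tested by exact two-sided sign-flip permutation with Benjamini-Hochberg adjustment over 18 tests, and over 6 for X, in Python 3.11.15 with numpy 2.4.6, pandas 2.3.3, scipy 1.17.1 and statsmodels 0.14.6. Placement, GC content and intervals were tested on simulated data. Named genes are every coding-exon IDR peak, the 8 strongest in each other class, genes with at least 2 exonic IDR peaks, and the 3 strongest coding regions outside the IDR list; listed genes with an IDR peak and regions at the thresholds were added. The members, gene lists and motifs were chosen with earlier results of these data known.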

Additional observations from a re-analysis of the deposited data

How the results depend on the processing

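The report counts 12.8% of exonic regions as IDR peaks. The strongest minus remaining exonic share and both GC differences kept their sign under each alternative run. The order of the UTRs turned: 5′ UTRs had 14.3% and 3′ UTRs 14.02% at more than 250 bp from a TSS, and 5.14% and 4.22% for above-median peaks. With only IDR peaks of above-median signal counted, the shares were 5.31% for exonic regions, 5.14% for 5′ UTRs, 1.09% for coding exons, 4.22% for 3′ UTRs and 12.5% for noncoding exons, against a background of 14.4%, and the X excess was 1.67 points. More than 1000 bp from a TSS, 8.11% of 5′ UTR regions were selected and the X excess was 11.8 points. With exons of protein-coding genes alone the exonic share was 9.30%. Leaving out 1 replicate and counting peaks held by both others gave 8.67% to 8.80% for exonic regions, 7.69% to 8.05% for 5′ UTRs, 7.87% to 8.10% for 3′ UTRs and 18.0% to 18.5% for noncoding exons, against backgrounds of 18.9% to 19.2%, and an X excess of 4.60 to 6.25 points; these fall by construction, since fewer peaks count. Support by the replicates left was 64.6% to 65.7%. Support by all 3 was 48.9% with a reciprocal overlap of 50%, 88.2% over all regions of each replicate (against 87.5% of all IDR peaks, where it had been lower) and 92.6% for peaks of above-median signal. In windows of 51 bp the motif shares were 8.43% for GATA, 11.2% for the TATA box, 2.25% for TAATTA, 7.87% for CGATA, 6.18% for GAGAG, 18.0% for CANNTG, 1.69% for CACACA, 10.1% for AAAAAAA, 3.37% for TAATATA and 1.12% for TCTTAAA, as the shorter window holds fewer bases. At above-median peaks TAATTA was in 11.8%, GAGAG in 8.82% and CACACA in 2.94%; the cause was not tested. Of 110 alternatives, 67 stayed within the spread of the main value and 43 did not. The X comparison and its alternatives were chosen after seeing the data. No paired analysis was possible because there is 1 group, apart from the differences taken within each replicate. Read depth is unknown, and exact sign-flip tests over 3 replicates cannot go below p = 0.25, so directions are descriptions.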
